A study of Drosophila melanogaster with 4 samples.

Results

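Chromosome arm 3R of Drosophila melanogaster carried 646 of the 5614 regions enriched for H3K9me2 in a combined list from 2 ChIP libraries. They are all enriched regions that the combined list places on 3R, and the 1 region named as depleted there was left out. The lists of the single libraries held 252 of 3667 regions on 3R in replicate 1 and 355 of 4728 in replicate 2. Chromatin immunoprecipitation with sequencing (ChIP-seq) was done on nuclei of Oregon-R larvae of the third larval instar. The strain is wild type, and every library shares strain, genotype and stage. The samples were 2 ChIP libraries made with the H3K9me2 antibody and 2 input libraries, sheared chromatin without immunoprecipitation, each named in the labels as the reference of the ChIP library with the same number. Nuclei came from homogenised larval tissue, so a region present in few cell types cannot be told apart from a weak region present in all. The labels do not state whether the replicates were separate collections of larvae, and their spread may therefore be technical only.

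H3K9me2 is dimethylated lysine 9 of histone H3, a mark laid down by histone methyltransferases and bound by heterochromatin protein HP1a. In flies it is known for the compact, repeat-rich chromatin around the centromeres, and it also marks scattered repeats and silent stretches within the gene-rich arms. The 3R sequence begins next to the centromere at its low coordinates, called proximal here, and ends towards the telomere at its high coordinates, called distal. The deeper pericentric heterochromatin of this arm is assembled separately as 3RHet and is not part of the 3R sequence. Positions are 1-based and follow FlyBase release 5, per the file headers. Genes and repeats at these positions were not looked up, because the gene table at hand follows release 6 and positions were not converted between releases.

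Enriched regions were sparse and short on 3R. The 252 regions of replicate 1 covered 655.5 kb and the 355 of replicate 2 covered 835.4 kb of the 27.9 Mb arm, or 2.67% ± 0.456 (SD, n = 2). Region length had a median of 2045 bp in replicate 1 and 1897 bp in replicate 2. The longest region measured 12834 bp in replicate 1 and 12580 bp in replicate 2, and the shortest 1305 bp and 1301 bp. The combined list covered 1484 kb, or 5.32% of the arm, with a median length of 1717 bp and a shortest region of 1001 bp. Each region carries the authors' score, which is used here mainly to rank or describe regions within a list. Its scale is not stated, so where scores of different lists are set side by side, equal scores need not mean equal enrichment. The median score on 3R was 0.62 in replicate 1 and 0.59 in replicate 2, and that of the combined list was 0.42. Read counts do not accompany the regions, so depth is unknown and no counting error could be given.

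**Figure D1:**
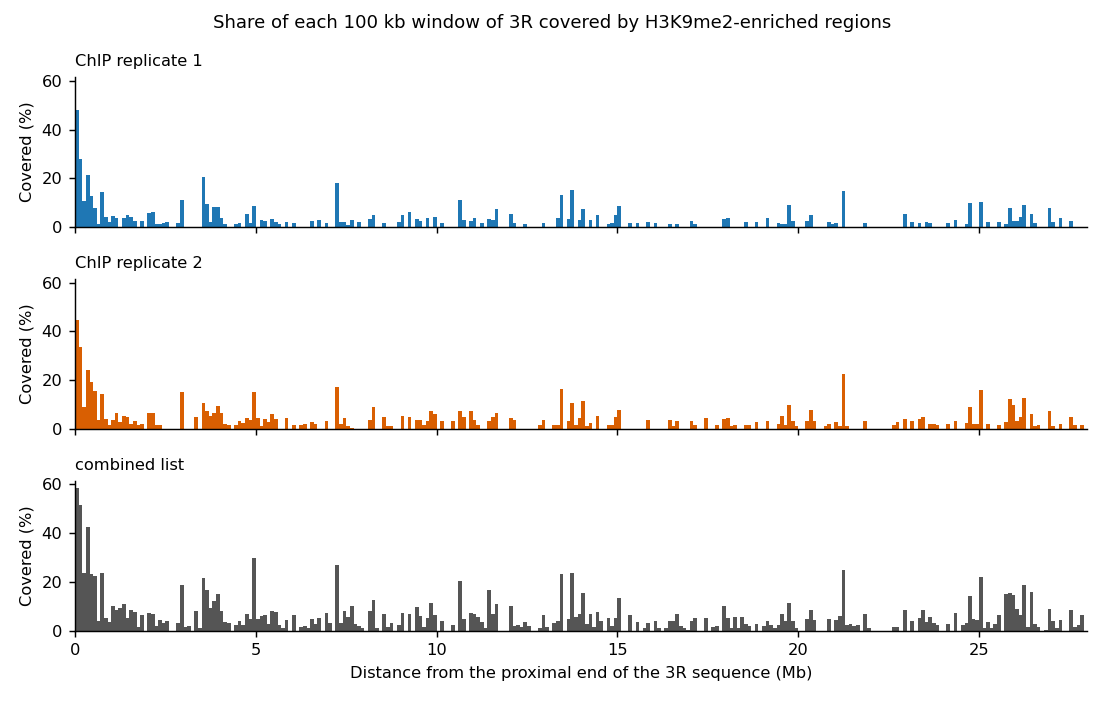
Share of each 100 kb window of 3R covered by enriched regions (y axis, percent) against distance from the proximal end of the arm sequence (x axis, Mb), for each ChIP replicate and the combined list. The first window is covered over 47.9% in replicate 1 and 44.8% in replicate 2, and the highest value of a replicate beyond 2 Mb is 22.6%.

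The densest enrichment lay at the proximal end and was small. The first 50 kb were covered over 73.2% in replicate 1 and 68.0% in replicate 2. Over the first 100 kb the values were 47.9% and 44.8%, and over the second 100 kb 28.0% and 33.5%. In the third window coverage was 10.7% and 8.93%, and in the fourth 21.2% and 24.2%, so the decline was not even. From 500 kb to 1 Mb coverage was 6.88% ± 1.36 (SD, n = 2), and from 1 Mb to 2 Mb it was 2.92% ± 0.415 (SD, n = 2), close to the arm-wide value. The window from 1900001 to 2000000 held no region in any list.

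Within the first 200 kb the combined list placed 24 regions, of which 15 overlapped both replicate lists, 7 a single list and 2 neither. Over the whole arm 28.6% overlapped both and 43.0% neither. The 24 had a median length of 3157 bp. Of the combined regions of 3R from 2000 bp up to 4000 bp, 102 of 176 (58.0%) overlapped both. The most proximal of the 24 spanned positions 2 to 22688 and, at 22.7 kb, was the longest region on 3R. Replicate 1 covered 99.4% of it and replicate 2 95.5%, each with 2 regions. It scored 1.09 in the combined list. After it came regions of 1.6 kb (23668 to 25282, score 0.31) and 7.3 kb (25296 to 32614, score 0.72), also in both lists. A gap of 23.1 kb without any combined region followed at 46889. The next long region of this stretch, 10.8 kb from 181410 to 192218, scored 0.58, and replicate 1 covered 84.8% of it and replicate 2 81.7%. Other regions there were 1.1 to 7.1 kb long, with scores from 0.25 to 1.55. A region of 11.4 kb lay farther out, at 752300 to 763730, with a score of 0.84 and coverage of 95.4% and 94.5% by the replicates. It lay in the eighth window, where coverage was 14.4% in replicate 1 and 14.2% in replicate 2.

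**Figure D2:**
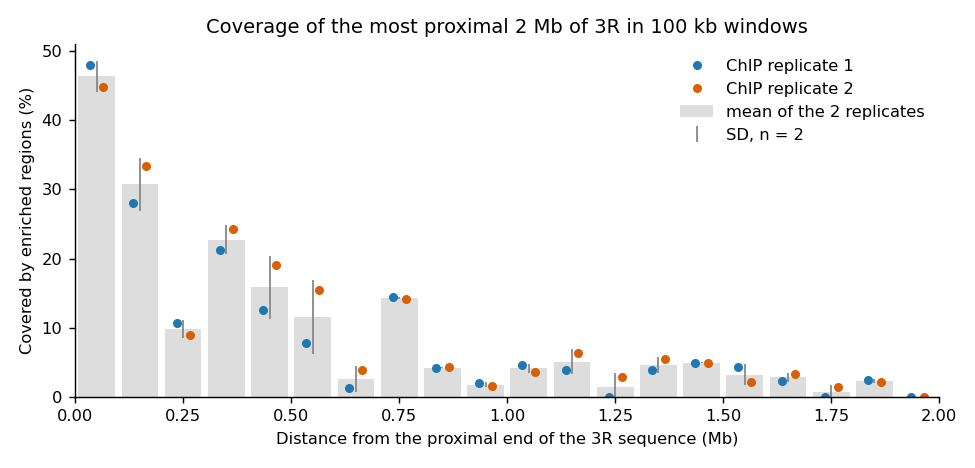
Coverage of the most proximal 2 Mb of 3R in 100 kb windows (y axis, percent covered) against distance from the proximal end (x axis, Mb). Points are the 2 ChIP replicates, bars their mean and lines the SD (n = 2). Replicates 1 and 2 fall from 47.9% and 44.8% in the first window to 10.7% and 8.93% in the third, rise again in the fourth, and stay below 10% in every window beyond 0.8 Mb.

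The most proximal 2 Mb held 25.5% ± 1.93 (SD, n = 2) of the covered bases of the arm and 21.3% ± 1.37 (SD, n = 2) of its regions. Its regions differed little from the rest in size. Their median length was 2282 bp against 2007 bp beyond 2 Mb in replicate 1, and 2041 bp against 1849 bp in replicate 2. On the other autosomal arms the same stretch held longer regions, with medians of 3561 bp ± 609.5 on 2L, 9517 bp ± 2060 on 2R and 9812 bp ± 2531 on 3L (each SD, n = 2). It held 55.6% ± 2.02 of the covered bases of 2L, 65.8% ± 3.33 of those of 2R and 65.9% ± 3.81 of those of 3L (each SD, n = 2). Both replicates of 3R lay below both replicates of each of these arms in both measures. How far each arm sequence reaches into pericentric chromatin was not examined, so these stretches need not be equivalent. Comparing an arm with another within 2 libraries cannot give a two-sided p below 0.5, so no test was made.

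Beyond 2 Mb the arm held 196 regions in replicate 1 and 283 in replicate 2, covering 2.15% ± 0.421 (SD, n = 2) of it. The same measure was 3.91% ± 0.321 on 2L, 3.98% ± 0.554 on 2R and 3.29% ± 0.499 on 3L (each SD, n = 2), and 3R was the lowest of the 4 arms in either replicate. Of the 260 windows of 100 kb beyond 2 Mb, 100 were empty in both replicates and 60 were empty in all 3 lists. Only 7 were covered by at least 10% in both replicates and 0 by at least 20%.

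By the mean of the replicates, the densest window beyond 2 Mb ran from 21200001 to 21300000, with 14.9% covered in replicate 1 and 22.6% in replicate 2. It held 2 of the 10 longest regions beyond 2 Mb. The first spanned 11.3 kb (21219724 to 21231064, score 1.01), of which replicate 1 covered 92.5% and replicate 2 95.9%. The second spanned 8.2 kb (21243962 to 21252158, score 0.74) and was covered over 53.7% and 82.3%. Next came the windows from 7200001 (17.9% and 17.2%), from 3500001 (20.4% and 10.6%) and from 13400001 (13.0% and 16.2%). The replicates were thus close at 7200001 and far apart at 3500001, the highest window of replicate 1. In the combined list the highest was the window from 4900001, with 29.9%, where the replicates covered 8.66% and 15.4%. In steps of 1 Mb, the fourth megabase followed the first with 4.62% ± 0.305, then the fourteenth with 3.89% ± 0.0742 and the twenty-sixth with 3.59% ± 1.31 (SD, n = 2 for each). The lowest was the seventeenth, with 0.642% ± 0.314 (SD, n = 2).

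The longest region beyond 2 Mb spanned 16.0 kb, from 10687322 to 10703302. It was broken up in the single lists, into 4 regions in replicate 1 and 3 in replicate 2, which covered 73.2% and 56.5% of it. Its score in the combined list was 0.58. Others of the 10 longest were 2957198 to 2968304 (11.1 kb), 24698118 to 24708764 (10.6 kb), 3521388 to 3530096 (8.7 kb) and 13705170 to 13713378 (8.2 kb). The rest of the 10 were 25003036 to 25011126 (8.1 kb), 26899770 to 26907708 (7.9 kb) and 11652562 to 11660312 (7.8 kb). Each of the 10 was found in both replicate lists, and each replicate covered at least 53.7% of it. Length was thus closely tied to detection in both libraries: all 26 combined regions of 6000 bp or more overlapped both lists, as did 41 of the 45 from 4000 bp up to 6000 bp and 102 of the 176 from 2000 bp up to 4000 bp. From 1301 bp up to 2000 bp only 16 of 216 did. Of the 183 regions under 1301 bp, shorter than any region of the single lists, 0 overlapped both and 154 overlapped neither. Overlap was counted from 1 bp, which a longer region meets more easily, so the trend with length is a description only.

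Over the whole arm, 185 combined regions (28.6%) overlapped both replicate lists, against 43.5% of the combined regions of all sequences. A single list was overlapped by 183 regions, 133 of them in replicate 2 and 50 in replicate 1. The other 278 (43.0%) overlapped neither list, against 33.2% over all sequences. On 2L, 2R and 3L the share in neither list was 38.3%, 41.3% and 37.3%, and that in both 36.4%, 34.8% and 36.8%. Regions in neither list covered little individually, with a median of 1256 bp each, while those in both had 3379 bp. Bases that only the combined list called made up 534.5 kb, or 36.0% of its coverage of 3R. The share in both lists was 36.8% in the first 2 Mb and 26.8% beyond. Beyond 2 Mb the share was 32.4% on 2L, 29.5% on 2R and 32.6% on 3L. The combined list was built from these libraries, so overlap with it is not independent of them.

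**Figure D3:**
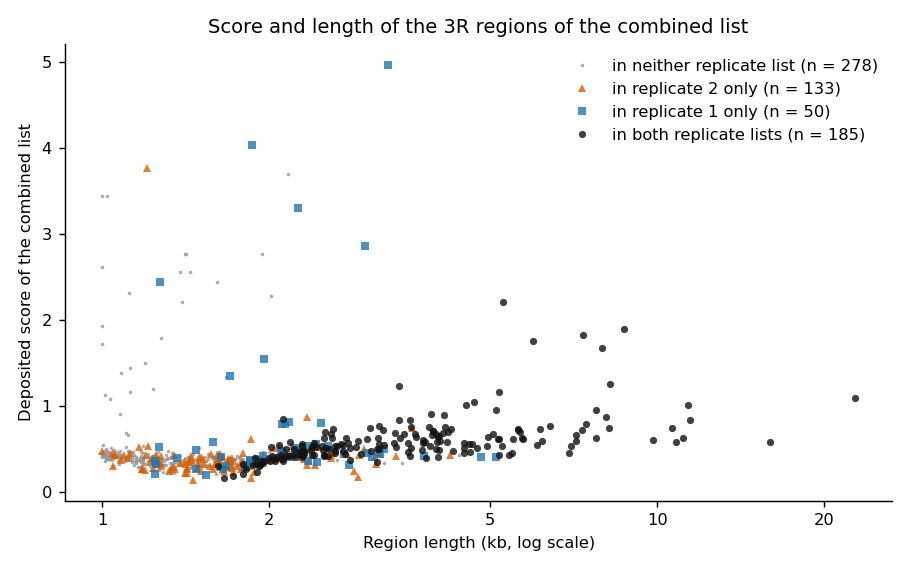
Deposited score of the combined list (y axis) against region length (x axis, kb, log scale) for the 646 regions of 3R, marked by the replicate lists that overlap each. Regions in both lists (n = 185) lie to the right and, but for 1, below a score of 2, while 19 of the 20 regions scoring 2 or more are found in a single list or neither and are at most 3279 bp long.

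The highest scores on 3R fell mostly on regions that the replicates did not share. Of the 20 combined regions with a score of 2 or more, 1 overlapped both replicate lists, 6 a single list and 13 neither. Their median length was 1430 bp, against 1717 bp for all combined regions of the arm, and 6 of them were under 1301 bp. Short regions were seldom shared at any score, with 0 of 183 in both lists under 1301 bp and 16 of 216 from 1301 bp up to 2000 bp. Score was not separated from length here. In the next score class, from 1 up to 2, 11 of 24 overlapped both and 11 neither. From 0.6 up to 1 the share was highest, at 58 of 68 in both lists. It was 93 of 269 from 0.4 up to 0.6, and 22 of 265 below 0.4. A higher score thus did not always go with detection in both libraries, in classes chosen after the values were seen. On 2L, 2R and 3L, 6 of 25, 9 of 29 and 9 of 26 regions scoring 2 or more were in both lists, against 36.4%, 34.8% and 36.8% of all their combined regions.

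The highest score, 4.97, belonged to a region of 3279 bp (6783870 to 6787148). Replicate 1 covered 39.5% of it with a region scoring 3.59, and replicate 2 covered 0% of it. Next came 5106228 to 5108090, with a score of 4.03, 80.5% covered by replicate 1 and 0% by replicate 2. The third, 8296836 to 8298038, scored 3.77 and was the reverse case, with 49.8% covered by replicate 2 and 0% by replicate 1. The fourth, 3176586 to 3178744, scored 3.70 and appeared in neither list. Both regions tied at 3.45 (10929248 to 10930266 and 15571746 to 15572746) were also in neither list and were 1019 bp and 1001 bp long. Replicate 1 alone held 27241236 to 27243488 (score 3.31, 98.0% covered) and 3533290 to 3536264 (score 2.86, 67.8% covered). The 3 regions tied at 2.77, which start at 234532, 12582130 and 21150670, were in neither list.

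Many of these scores recurred in other regions, which bears on their scale. The most frequent score of the whole combined list was 0.449, carried by 81 of its 5614 regions. Of the 20 regions on 3R that scored 2 or more, 16 differed from that value by the base-2 logarithm of a ratio of 2 whole numbers up to 20, to within 1e-06. Below a score of 2 this held for 24 of 626 regions (3.83%). For instance, 3.45 lies log2 of 8 above it and was carried by 25 regions in all, 2.77 lies log2 of 5 above it and was carried by 17, and 2.45 lies log2 of 4 above it and was carried by 19. In replicate 1, where the most frequent score was 2.59, 7 of the 11 regions on 3R that scored 2 or more stood at such steps, against 2 of 241 below 2. In replicate 2 the count was 1 of 3, against 26 of 352. In the combined list and in replicate 1, most scores of 2 or more thus stood at steps of a base-2 logarithm, which was not the case in replicate 2. How the scores were computed, and whether such ratios entered them, is not given in the sources at hand.

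The single lists differed in how far they shared their leading scores. Replicate 1 had 11 regions with a score of 2 or more, of which 3 overlapped replicate 2, while replicate 2 had 3, of which 2 overlapped replicate 1. The top 5 of replicate 1 scored 4.66 (27241243 to 27243449), 3.73 (19683012 to 19684433), 3.59 (5106591 to 5108097 and 6785854 to 6787318) and 3.07 (3533676 to 3535693). Replicate 2 covered 0% of each of these 5. The top region of replicate 2 scored 2.62 (8296011 to 8297434), and replicate 1 covered 0% of it. The next 4 of replicate 2 scored 2.05 (873254 to 877539), 2.02 (2000950 to 2004879), 1.97 (4737632 to 4738967) and 1.89 (2005602 to 2008090). Replicate 1 covered at least 82.1% of each of these 4. Of scores of 1 or more, 20 of 34 in replicate 1 and 14 of 17 in replicate 2 overlapped the other list. Below 1 the counts were 174 of 218 (79.8%) in replicate 1 and 191 of 338 (56.5%) in replicate 2. Over all regions of 3R the shares were 77.0% and 57.7%. Regions scoring 1 or more were thus shared less often than the rest in replicate 1 and more often in replicate 2.

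The ranking of the regions that both replicates detected gave a different set from the highest scores overall. The highest was 873294 to 878564, which was 5.3 kb long. It scored 2.21 in the combined list, 2.21 in replicate 1 and 2.05 in replicate 2. By the combined score it was the only region of 2 or more found in both. Next was 3521388 to 3530096, with 1.91 in the combined list, 2.01 in replicate 1 and 1.67 in replicate 2. The third, 2000856 to 2008204, scored 1.83, and its highest regions in replicates 1 and 2 scored 2.84 and 2.02. The fourth, 4732952 to 4738920, scored 1.76, and its highest regions in replicates 1 and 2 scored 1.87 and 1.97. These lay in different parts of it. Its overlapping pairs scored 1.87 in replicate 1 against 1.47 in replicate 2, and 1.43 against 1.97. The fifth, 26899770 to 26907708, scored 1.67, with 1.88 and 1.42, and lay near the distal end. Of the 10 highest shared regions 8 lay in the first 5 Mb, and the others were the fifth and 13705170 to 13713378 (score 1.26). For comparison, the first 5 Mb held 73 of the 185 shared regions of the arm. Whether the score also helped define the regions is not stated, so this ranking is a description only.

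Many regions of the single lists stood alone. A region was called isolated when its own list held no other region within 100 kb on either side. There were 46 such regions in replicate 1 (18.3% of its regions), 33 in replicate 2 (9.30%) and 16 in the combined list (2.48%). The 3 other autosomal arms had fewer as a share, with 5.70% ± 0.0319 on 2L, 4.30% ± 1.26 on 2R and 8.19% ± 2.87 on 3L, against 13.8% ± 6.33 on 3R (SD, n = 2 for each). The spread on 3R was wide, and replicate 1 of 3L, at 10.2%, was above replicate 2 of 3R. Isolation also follows from how many regions a list holds, and replicate 1 held fewer.

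Of the 16 isolated combined regions, 6 (37.5%) overlapped both replicate lists, 7 replicate 2 alone, 0 replicate 1 alone and 3 (18.8%) neither. Of the 630 other combined regions of 3R, 179 (28.4%) overlapped both, 126 replicate 2 alone, 50 replicate 1 alone and 275 (43.7%) neither. The strongest isolated region found in both lists was 2000856 to 2008204, described above. It had 114.9 kb before it and 123.8 kb after it free of combined regions. The other 5 isolated regions in both lists had combined scores of 0.56 at most. The 4 highest of these were 24171472 to 24174166 (2.7 kb, score 0.56), 9214944 to 9221944 (7.0 kb, score 0.54), 18877794 to 18880658 (2.9 kb, score 0.53) and 15840706 to 15843858 (3.2 kb, score 0.50). Replicate 1 scored these 4 at 0.62, 0.61, 0.69 and 0.63, in that order, and replicate 2 at 0.66, 0.59, 0.55 and 0.66. The region at 9214944 had 151.5 kb before it and 201.5 kb after it, and replicate 1 covered 88.7% of it and replicate 2 72.5%. The last of the 6, 10137974 to 10141798, scored 0.40 and was covered over 40.2% and 44.9%. The isolated regions at 3176586 (score 3.70) and 12582130 (score 2.77) were in neither replicate list.

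Long stretches without any region made up most of the arm. Stretches of at least 100 kb numbered 91 in replicate 1 and 94 in replicate 2 and made up 83.0% and 74.9% of 3R. The corresponding mean was 79.0% ± 5.67 on 3R, against 63.8% ± 3.14 on 2L, 62.4% ± 6.24 on 2R and 68.6% ± 4.24 on 3L (each SD, n = 2). In the combined list 82 such stretches made up 53.0% of 3R, 14.8 Mb in all. Within each replicate 3R had the largest share of the 4 arms.

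**Figure D4:**
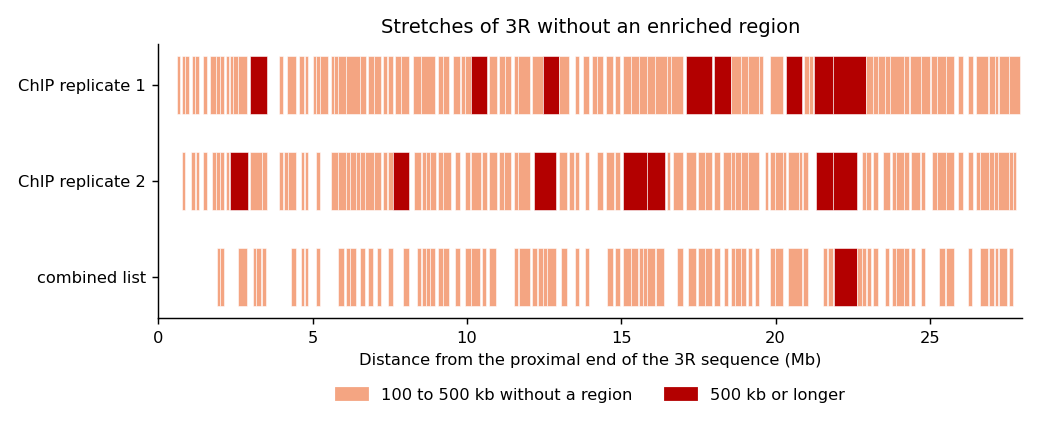
Stretches of at least 100 kb without an enriched region, drawn to scale along 3R by distance from the proximal end (x axis, Mb) for each list (y axis), with those of 500 kb or more in dark red. Replicates 1 and 2 have 8 and 7 dark stretches and the combined list has 1, near 22 Mb, where both replicates have long empty stretches too.

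The longest empty stretch of the combined list ran from 21906297 to 22642665, over 736.4 kb. Replicate 1 had no region from 21862410 to 22919548 (1057 kb) and replicate 2 none from 21863868 to 22642660 (778.8 kb), so this was the longest gap of replicate 1 and second in replicate 2. In all 3 lists together it remained empty over 736.4 kb, the longest such stretch of the arm. It ended at an isolated region of 1.6 kb (22642666 to 22644294, score 0.35) that replicate 2 alone detected. The 1 region that the combined list named as depleted on 3R lay shortly after, at 22701104 to 22702754, with a score of -0.00616. Replicate 2 listed nearly the same bases as enriched (22701104 to 22702742), with a score of 0.085, its lowest on 3R. The whole megabase from 22000001 held 1 region in replicate 1 and 5 in replicate 2.

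Other stretches empty in all 3 lists ran from 11677713 to 12038477 (360.8 kb), from 20415053 to 20750048 (335.0 kb), from 2585401 to 2879455 (294.1 kb) and from 12584069 to 12877811 (293.7 kb). The last began right behind the isolated, unshared region at 12582130. In the combined list alone the second longest ran from 20414893 to 20840475 (425.6 kb), and replicate 2 placed 1.57 kb of enriched bases in it. The largest gaps of the single lists often did not coincide. The longest of replicate 2 (15055028 to 15838191, 783.2 kb) held 2 regions of replicate 1, and the second longest of replicate 1 (17105933 to 17934777, 828.8 kb) held 5 regions of replicate 2. Stretches of 500 kb or more that neither replicate entered numbered 2, the second being 21323082 to 21860734 (537.7 kb), in which the combined list placed 8 regions.

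The distal end carried little enrichment. Replicate 1 covered 1.13% of the last 1 Mb of the arm, replicate 2 covered 1.44% and the combined list 3.24%. The last region ended 338.0 kb before the end of the sequence in replicate 1, 96.3 kb before it in replicate 2 and 34.3 kb before it in the combined list. Of the 5 most distal combined regions, 4 were in neither replicate list, against 43.0% of all combined regions of the arm. The fifth, 27806416 to 27810030 (score 0.75), had 49.0% of its bases in replicate 2 and 0% in replicate 1. The 4 were short, from 1125 bp to 1715 bp. On the whole arm 154 of 183 combined regions under 1301 bp were in neither list, and 112 of 216 from 1301 bp up to 2000 bp. The most distal long region, 26899770 to 26907708, in contrast, had 100% of its bases in replicate 1 and 94.3% in replicate 2.

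The replicates shared 492.5 kb on 3R, or 75.1% of what replicate 1 covered and 59.0% of what replicate 2 covered. Of the regions of replicate 1, 194 of 252 (77.0%) overlapped replicate 2, against 81.7% over all sequences. Of the regions of replicate 2, 205 of 355 (57.7%) overlapped replicate 1, against 79.7% over all sequences. Against all sequences the shortfall was thus mainly on the side of replicate 2, which had 150 regions of its own. On 2L, 2R and 3L the replicate 2 share was 69.6%, 67.3% and 68.9%, also below that over all sequences. The replicate 1 share was 79.3%, 86.2% and 83.4% on those arms. Both shares were lower on 3R than on each of them. The Jaccard index, the shared bases over the bases in either list, was 0.592 in the first 2 Mb and 0.462 beyond. It was 0.487 from 2 to 10 Mb, 0.454 from 10 to 20 Mb and 0.440 in the rest. Beyond 2 Mb the index was 0.570 on 2L, 0.565 on 2R and 0.532 on 3L. In the first 2 Mb it was 0.850, 0.929 and 0.922 on those arms, which are far more densely covered there. Regions found in a single list were shorter. Their median length was 1552 bp against 2218 bp for shared regions in replicate 1, and 1558 bp against 2339 bp in replicate 2.

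Where a region of replicate 1 overlapped exactly 1 region of replicate 2 and the reverse, the positions were close. There were 173 such pairs. Their starts differed by a median of 231 bp and their ends by 211 bp, and in 106 pairs (61.3%) both ends lay within 500 bp. Median scores in the pairs were 0.62 in replicate 1 and 0.64 in replicate 2, and replicate 1 scored higher in 95 of them. Scores differed by a median of 0.08, and in 90% of pairs by no more than 0.23. The score scale is not stated and its most frequent value differs between the lists. These differences need therefore not be differences in enrichment. Across the 173 pairs the Spearman rho of the scores was 0.751 and that of the lengths 0.733. These are descriptions over regions that share both libraries, and only regions that passed the authors' calling in both could enter. The largest difference, 0.82, was at the isolated region near 2.0 Mb, which scored 2.84 in replicate 1 (2001654 to 2004893) and 2.02 in replicate 2 (2000950 to 2004879). The reverse case was at 4.7 Mb, with 1.43 in replicate 1 and 1.97 in replicate 2.

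**Figure D5:**
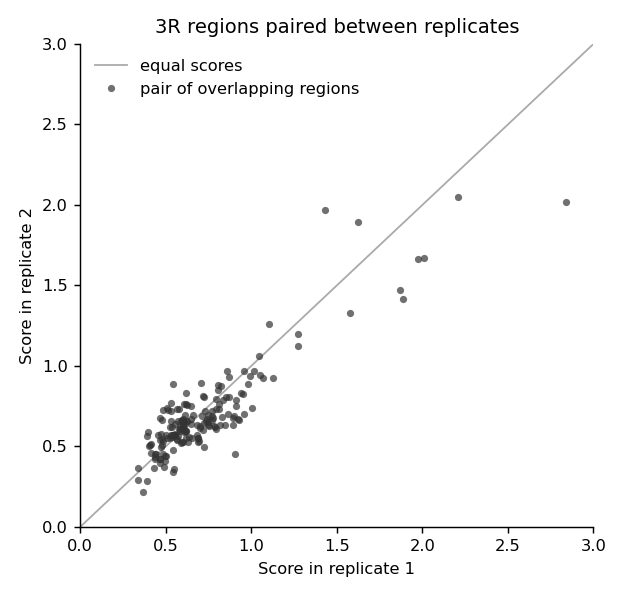
Scores of the 173 pairs of overlapping 3R regions in replicate 1 (x axis) and replicate 2 (y axis), with the line of equal scores. Most pairs lie between 0.4 and 1 in both replicates, and the unshared regions with scores up to 4.66 in replicate 1 and 2.62 in replicate 2 do not appear.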

How the data were processed

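The submitters' processing notes name Bowtie 0.12.7, a read aligner, and coordinates follow FlyBase release 5, per the file headers. The authors deposited 3 lists of enriched regions, with a score for each region whose scale is not stated. The region caller, its thresholds and the way the libraries were combined are not named in the labels or headers. A list was made for each ChIP library, with the input of the same number as its reference, per the labels. Regions named as depleted were set aside, and no region on 3R passed the end of the arm. Covered bases, windows of 100 kb and empty stretches were computed with Python 3.11.15, numpy 2.4.6 and pandas 2.3.3, and rank correlations with scipy 1.17.1. Interval functions were tested on simulated lists. Overlap means at least 1 bp shared, and the proximal stretch is the first 2 Mb (on 2L and 3L the last 2 Mb).

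Members, named regions and measures were chosen with earlier results of these data known. Named were, in the combined list, the 10 highest-scoring regions with ties, the 10 longest on the arm and beyond 2 Mb, the 5 highest-scoring isolated regions found in both lists, those starting in the first 200 kb and the 5 most distal. The 5 longest empty stretches and the 5 highest-scoring regions of each replicate were also named. The ranking of shared regions, the score classes and the score steps were chosen after the values were seen. With 2 replicates no test over libraries was made. Intervals for counting error of reads were not computed. A binomial interval over regions served only to sort the recomputed shares below, and it treats regions as independent, which was not shown.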

Additional observations from a re-analysis of the deposited data

How the results depend on the processing

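Apart from leaving out a replicate, 23 of 61 recomputed values counted as unchanged. The limit was the spread for replicate means, the binomial interval over regions for shares and, for counts, 1.5 times of the reported ones. Other single values, such as combined coverage and the Jaccard index, had to match to 3 significant digits, so small moves counted as changes. With regions of at least 2000 bp, 3R held 147.0 regions on average and 247 combined ones, covering 1.78% and 3.32% of the arm and 7.31% and 11.7% of its first 2 Mb. The combined list then had 48 isolated regions, the longest empty stretch was 1707 kb on average and 1056 kb combined, 71.2% of replicate 2 regions were shared, the Jaccard index was 0.556 and 42.5% of combined regions were in both lists. Merging within 1000 bp gave combined coverage of 5.46% and 17.0% of the first 2 Mb, with 32.3% of combined regions in both lists. The 50% of regions with the highest scores numbered 151.5 and 323 by construction, covering 1.70% and 3.45% of the arm and 6.95% and 12.2% of its first 2 Mb. The longest empty stretches were then 1985 kb and 1013 kb, the Jaccard index was 0.482 and isolated combined regions numbered 36. The first 1 Mb was covered over 16.0% (25.8% combined) and the first 3 Mb over 7.35% (12.6% combined). Isolation by 50 kb gave 73.0 and 57 regions, and by 200 kb 9.5 and 0. Mutual overlap of 50% lowered the shared replicate 2 regions to 50.7%. Outside the first 2 Mb coverage was 2.15% (4.47% combined) and the Jaccard index 0.462. Leaving out combined regions shorter than any replicate region, a choice made after seeing the data, gave 40.0% in both lists. Most of these settings keep fewer regions or another stretch by construction, and the cause was not tested further. Single replicates ranged from 252 to 355 regions, 2.35% to 2.99% coverage, 8.81% to 10.1% proximal coverage, 33 to 46 isolated regions and 783.2 to 1057 kb for the longest gap. Agreement and the combined list could not be recomputed without a replicate. No paired analysis was possible because no region list of an input library was analysed here and nothing was tested. Unknown depth limits all absences: a region missing from a list may lie below its threshold.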
